A study of Mus musculus with 40 samples.

Results

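Wild-type H2A.Z.1 was put back after deletion of H2A.Z in the hippocampus of male mice, and these mice are compared with mice that had the deletion alone. The comparison holds 9 of the 40 mice of the study, chosen by their labels: 5 male mice with both H2A.Z genes deleted plus expression of wild-type H2A.Z.1 (the H2A.Z.1 WT mice, sample numbers 9, 10, 29, 30 and 46) and 4 male mice with the deletion alone (the H2A.Z KO mice, sample numbers 3, 4, 21 and 42). All were floxed for both H2A.Z genes and received a stereotaxic injection of viruses into the hippocampus. In both groups 1 virus carried Cre under the synapsin promoter, which is active in neurons. The second virus carried 3xMyc-H2A.Z.1 WT in the H2A.Z.1 WT mice and 3xMyc alone in the H2A.Z KO mice, under the CMV promoter, which is not restricted to neurons, and also made GFP. Both hemispheres were injected. The labels call the deletion a knockdown (KD) and the replacement an overexpression. The 4 male Myc mice (sample numbers 1, 22, 23 and 41), which the labels give as WT in genotype, are set beside both groups as controls. The labels do not say whether they received Cre. By the paper, its Myc controls were given the Myc tag virus without Cre, mixed with PBS to match titer and volume. Each comparison with Myc below therefore also differs by the Cre virus. Ages are not given in the labels. The RNA came from hippocampal tissue and so holds the RNA of every cell type in it, those that the synapsin promoter does not reach included.

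H2A.Z is a variant of histone H2A that is placed mainly in the nucleosomes next to transcription start sites and that turns over in neurons. It is encoded by H2az1 (formerly H2afz) and H2az2 (formerly H2afv). SRCAP and p400/Tip60 complexes load it and INO80 and ANP32E are known for removing it. Several of the gene groups that differed between the 2 groups belong to the interferon response. In that pathway, interferon gamma made by T and NK cells acts through its receptor on transcription factors that bind GAS elements, and IRF factors bind ISRE elements in the promoters of interferon-stimulated genes. Irf1 is a transcription factor early in this chain and Ciita is the master regulator of the MHC class II genes.

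Total gene counts ran between 32000421 and 38749665 in the H2A.Z.1 WT mice (median 37370648), between 24342921 and 43158420 in the H2A.Z KO mice (median 35017788) and between 33661020 and 41090936 in the Myc mice (median 37614194). The lowest total was that of KO 42, which also had the lowest mean level of the ribosomal protein genes among the H2A.Z KO mice. No 2 H2A.Z.1 WT mice and no 2 H2A.Z KO mice had counts that agreed within sampling noise, since the chi-square per degree of freedom over genes was 8.16 or more for each such pair. Values of single mice are given below as CPM, the read counts scaled to a common library total after TMM, a correction for library composition, in the order of the sample numbers above, and a log2 fold change is H2A.Z.1 WT over H2A.Z KO. The neuronal markers Rbfox3, Snap25, Syt1, Slc17a7 and Gad1 summed to between 4833 and 5509.6 CPM in the H2A.Z.1 WT mice, between 2938 and 4732 CPM in the H2A.Z KO mice and between 6131 and 6610.2 CPM in the Myc mice. The dentate gyrus markers Prox1, C1ql2 and Dsp, the CA1 markers Wfs1, Fibcd1 and Pou3f1 and the CA3 markers Bok, Iyd and Grik4 were present in every group, as the label hippocampus requires.

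The targeted genes H2az1 and H2az2 check the labels. H2az1 had 37.1, 35.5, 38.5, 45.2 and 44.7 CPM in the H2A.Z.1 WT mice, against 37.6, 37, 33.9 and 17.7 CPM in the H2A.Z KO mice and 32.3, 37.2, 34.9 and 27 CPM in the Myc mice (log2 fold change 0.35 ± 0.15 (SE), edgeR adjusted p = 0.11). The groups overlapped, and KO 42 was the only H2A.Z KO mouse below the Myc mice. H2az2 had 24.3, 22.4, 22.4, 26.3 and 26.6 CPM in the H2A.Z.1 WT mice, against 28.7, 29.3, 23.3 and 20.8 CPM in the H2A.Z KO mice (log2 fold change -0.07 ± 0.10 (SE), edgeR adjusted p = 0.711). Within the mice numbered 21 to 46 alone, H2az1 was higher with H2A.Z.1 WT (log2 fold change 0.72, edgeR adjusted p = 0.016), and within those numbered 1 to 20 it was at -0.04 (edgeR adjusted p = 0.94). With all 9 mice neither gene passed the test between H2A.Z.1 WT and H2A.Z KO, nor between H2A.Z KO and Myc (H2az1 log2 fold change -0.05, edgeR adjusted p = 0.841, and H2az2 0.14, edgeR adjusted p = 0.35). Counts per gene take in the RNA of cells without Cre, and whether reads from the 3xMyc-H2A.Z.1 WT virus or from the gene outside the floxed exons enter the count is not given in the sources used here. With all mice, these 2 genes showed neither the deletion nor the replacement in these counts. The paper's own mRNA assays found less H2afz with Cre alone, less H2afv in all Cre groups and more H2afz with each H2A.Z.1 construct. It also found a strong loss of H2A.Z in cultured neurons given Cre. The paper proposes that the small loss in tissue comes from low sensitivity for a knockout limited to neurons, which was not tested here. Of 23 genes for the loading, removal and reading of H2A.Z, 1 rose and 1 fell, against 7.44% higher and 12% lower among all genes tested. Kat5, the Tip60 acetyltransferase, rose slightly (log2 fold change 0.18 ± 0.06 (SE), edgeR adjusted p = 0.039), and Brd2, a bromodomain reader of acetylated nucleosomes, fell slightly (log2 fold change -0.22 ± 0.06 (SE), edgeR adjusted p = 0.0041). The call for Kat5 was lost without KO 4, KO 21, WT 10, WT 30 or WT 46, and with only the mice of the groups compared neither gene was called.

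Over the 28449 genes with at least 20 counts in all, 2117 (7.44%) were higher and 3419 (12%) were lower in the H2A.Z.1 WT mice than in the H2A.Z KO mice at an adjusted p under 0.05 (edgeR's quasi-likelihood test with Benjamini-Hochberg adjustment over all genes tested, which is the adjusted p throughout). These 2 shares are the baseline for the counts of list members below. The changes were uneven in size. The median log2 fold change of lower genes was -1.09, a 2.13-fold difference, and that of higher genes was 0.40, a 1.32-fold difference. Of those past a log2 fold change of 1, 241 genes (0.847% of all tested) were higher and 1825 (6.41%) were lower. Genes called higher were also more abundant, with a median of 29.3 CPM over the 9 mice, against 7.39 CPM for lower genes and 2.25 CPM for all genes tested. Small folds pass the test more readily at high counts, and the part of this in the difference was not tested. Every H2A.Z.1 WT mouse lay above every H2A.Z KO mouse for 1786 genes (6.28%) and below for 2882 genes (10.1%). The plot of fold change against level shows this asymmetry. In whole tissue, fewer cells of a type and less RNA per cell cannot be told apart, and this holds for all gene groups below. Without KO 4 the number of higher genes was 1300 and the number of lower genes 2534. Of the 4 H2A.Z KO mice, KO 4 had the lowest mean log2 CPM of the pan-neuronal, presynaptic and both ion channel lists and the highest of the mitosis list.

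**Figure D1:**
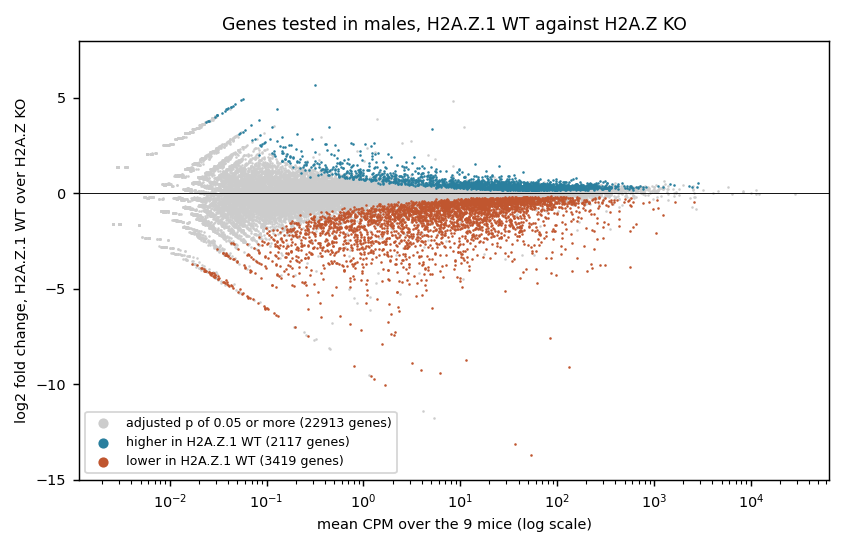
Log2 fold change of H2A.Z.1 WT over H2A.Z KO against mean CPM over the 9 mice (log axis), with 1 point per gene tested and colors for the 2117 higher, the 3419 lower and the other genes. Higher genes lie close to the zero line at high levels, while lower genes reach far larger fold changes over the whole range of levels.

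Interferon-stimulated genes had the largest share of lower members among the 48 gene lists. Of 63 interferon-stimulated genes, 62 fell and none rose, with a median log2 fold change of -2.04, against 0.00 over all genes tested. In 61 of the 63, every H2A.Z.1 WT mouse lay below every H2A.Z KO mouse. Ly6e, an interferon-induced surface protein and the lower gene with the smallest p, had 143, 169.9, 151, 163 and 153 CPM in the H2A.Z.1 WT mice, against 299, 427, 454 and 373 CPM in the H2A.Z KO mice and 129.6, 159.9, 112 and 154 CPM in the Myc mice (log2 fold change -1.32 ± 0.12 (SE), edgeR adjusted p = 2.8e-09). All 5 H2A.Z.1 WT mice were below all 4 H2A.Z KO mice, which the rule for the smallest p required, and overlapped the Myc mice. Trim25, a ubiquitin ligase of RNA sensing by RIG-I, had 12.4, 17.2, 12.6, 11.5 and 11.6 CPM with H2A.Z.1 WT, against 26.9, 39, 39.2 and 30.1 CPM with H2A.Z KO (log2 fold change -1.37 ± 0.15 (SE), edgeR adjusted p = 6.1e-08). Its H2A.Z.1 WT values stayed above the Myc values of 5.5, 6.41, 5.4 and 7.07 CPM, with WT 10 the highest of its group. Lgals9, which encodes galectin-9, and Sp100, a nuclear body protein, had log2 fold changes of -1.78 and -1.98.

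Genes that the pathway places upstream of these targets were also lower, and an order between them was not tested. Of 22 interferons, receptors and transducers tested, 16 fell and none rose (median log2 fold change -1.04). Irf1 had 17.4, 24.7, 15, 19.5 and 16.8 CPM in the H2A.Z.1 WT mice, against 82.7, 116, 231 and 65.5 CPM in the H2A.Z KO mice and 8.92, 9.9, 7.95 and 10.4 CPM in the Myc mice (log2 fold change -2.73 ± 0.39 (SE), edgeR adjusted p = 6.6e-06). Each H2A.Z.1 WT mouse was below the lowest H2A.Z KO mouse, and KO 21 was far above the rest. Ifng, which encodes interferon gamma, was close to 0 with H2A.Z.1 WT (0.0514, 0.0929, 0.105, 0.0522 and 0 CPM), against 1.46, 0.845, 7.93 and 1.77 CPM with H2A.Z KO (log2 fold change -5.54 ± 0.98 (SE), edgeR adjusted p = 9.7e-05). The fold of Ifng was smaller without KO 21, at a log2 fold change of -4.38, and still passed the test. Ifngr1, a chain of the interferon gamma receptor, Irf5, a factor of Toll-like receptor signaling, and Sting1, the adaptor of cytosolic DNA sensing, had log2 fold changes of -1.09, -1.56 and -1.68 with no overlap between the groups.

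The promoters of Irf1, Ciita and Gbp2b (an interferon-induced GTPase) are shown because these lower genes belong to the pathway and hold its elements, and they were chosen after the search. Each sequence is the 250 bases before the start of the GENCODE canonical transcript on GRCm39, written 5′ to 3′ on the strand of the gene. Capitals mark matches to GAS (TTCNNNGAA) or ISRE (GAAA, 2 bases of any kind, then GAAA), searched on both strands. The Irf1 promoter (chr11:53660591-53660840, plus strand) holds 1 GAS match, 90 to 82 bases before the start. That of Ciita (chr16:10307266-10307515, plus strand) holds 1 GAS match, and that of Gbp2b (chr3:142300352-142300601, plus strand) holds an ISRE match and a GAS match.
Irf1: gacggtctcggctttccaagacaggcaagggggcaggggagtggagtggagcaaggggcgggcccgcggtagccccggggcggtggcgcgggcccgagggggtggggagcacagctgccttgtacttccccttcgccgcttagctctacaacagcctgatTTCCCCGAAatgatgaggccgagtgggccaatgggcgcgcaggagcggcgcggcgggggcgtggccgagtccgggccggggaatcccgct
Ciita: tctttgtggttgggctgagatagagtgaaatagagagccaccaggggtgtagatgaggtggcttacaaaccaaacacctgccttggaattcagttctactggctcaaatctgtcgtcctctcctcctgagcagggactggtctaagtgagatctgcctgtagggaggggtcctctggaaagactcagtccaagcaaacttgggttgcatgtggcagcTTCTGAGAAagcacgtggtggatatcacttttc
Gbp2b: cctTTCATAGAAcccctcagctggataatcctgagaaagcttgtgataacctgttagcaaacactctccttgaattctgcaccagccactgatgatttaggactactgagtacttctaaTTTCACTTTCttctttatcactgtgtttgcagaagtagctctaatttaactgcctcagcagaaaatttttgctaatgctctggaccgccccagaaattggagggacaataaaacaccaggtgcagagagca

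Such matches were counted over the promoter window of 250 bases before to 50 after the start of 23876 genes tested. ISRE matches stood in 53.2% of the promoters of the interferon-stimulated gene list (33 of 62), in 9.4% of those of genes lower by more than 1 on the log2 scale, in 2.73% of those higher by more than 1, in 6.5% of all lower genes, in 2.24% of all higher genes and in 3.77% of all genes tested. GAS matches stood in 22.6% of the interferon-stimulated gene list, 9.37% of lower genes, 7.99% of higher genes and 8.16% of all genes tested, and past 1 on the log2 scale in 10.8% of lower and 12% of higher genes. Matches to CRE (TGACGTCA) were found in 2.01% of lower, 3.21% of higher and 2.22% of all genes tested, and those to the kappa-B motif (GGGA, any base, then TTTCC) in 0.897% of lower, 0.305% of higher and 0.431% of all genes tested. A match is a run of letters and not evidence of binding.

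Antigen presentation fell along with the interferon genes. Of 30 genes of MHC class I and peptide loading, 26 fell and 1 rose (median log2 fold change -2.03). B2m, which encodes beta-2-microglobulin of class I molecules, had 408, 559, 455, 389 and 331 CPM in the H2A.Z.1 WT mice, against 1557, 1776, 2339 and 1563 CPM in the H2A.Z KO mice and 109, 137, 100.2 and 151 CPM in the Myc mice (log2 fold change -2.08 ± 0.28 (SE), edgeR adjusted p = 2.3e-06). The lowest H2A.Z KO mouse had more B2m than any H2A.Z.1 WT mouse, and all H2A.Z.1 WT mice exceeded all Myc mice. Tap2, a subunit of the peptide transporter, had 14.9, 18.7, 13.8, 15.8 and 13.1 CPM with H2A.Z.1 WT, against 56.8, 70.2, 109 and 52.2 CPM with H2A.Z KO (log2 fold change -2.24 ± 0.28 (SE), edgeR adjusted p = 8.9e-07). Tapbp, the tapasin chaperone, had a log2 fold change of -1.96. The class I genes H2-T22, H2-T23 and H2-T24 had -1.98, -2.91 and -1.58, with the caution that reads of near-identical class I genes can be assigned to one another. H2-M5, named after its values were seen, was the member that rose, at a low level (1.19 ± 0.164 CPM with H2A.Z.1 WT and 0.599 ± 0.129 CPM with H2A.Z KO, SD, n = 5 and 4).

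Of 16 MHC class II genes tested, 14 fell and 1 rose (median log2 fold change -2.82). Ciita had 3.19, 3.62, 2.93, 3.05 and 2.35 CPM in the H2A.Z.1 WT mice, against 13.9, 15.2, 47.3 and 14.8 CPM in the H2A.Z KO mice and 1.89, 2.35, 1.88 and 2.41 CPM in the Myc mice (log2 fold change -2.91 ± 0.33 (SE), edgeR adjusted p = 2.6e-07). The H2A.Z.1 WT mice overlapped the Myc mice through WT 46 only, and KO 21 was far above the other H2A.Z KO mice. Without KO 21 its log2 fold change was -2.27. H2-DMa, which helps load peptides on class II, fell with -1.78 ± 0.18 (SE) on the log2 scale. Ifi30, a lysosomal thiol reductase for antigens, and H2-Oa, a modulator of class II loading, had -2.39 and -3.40. The member that rose was Rfxap, a subunit of the RFX factor, named after its values were seen, with a log2 fold change of 0.30 and overlapping groups, and its call was lost without KO 4, KO 42 or WT 46.

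**Figure D2:**
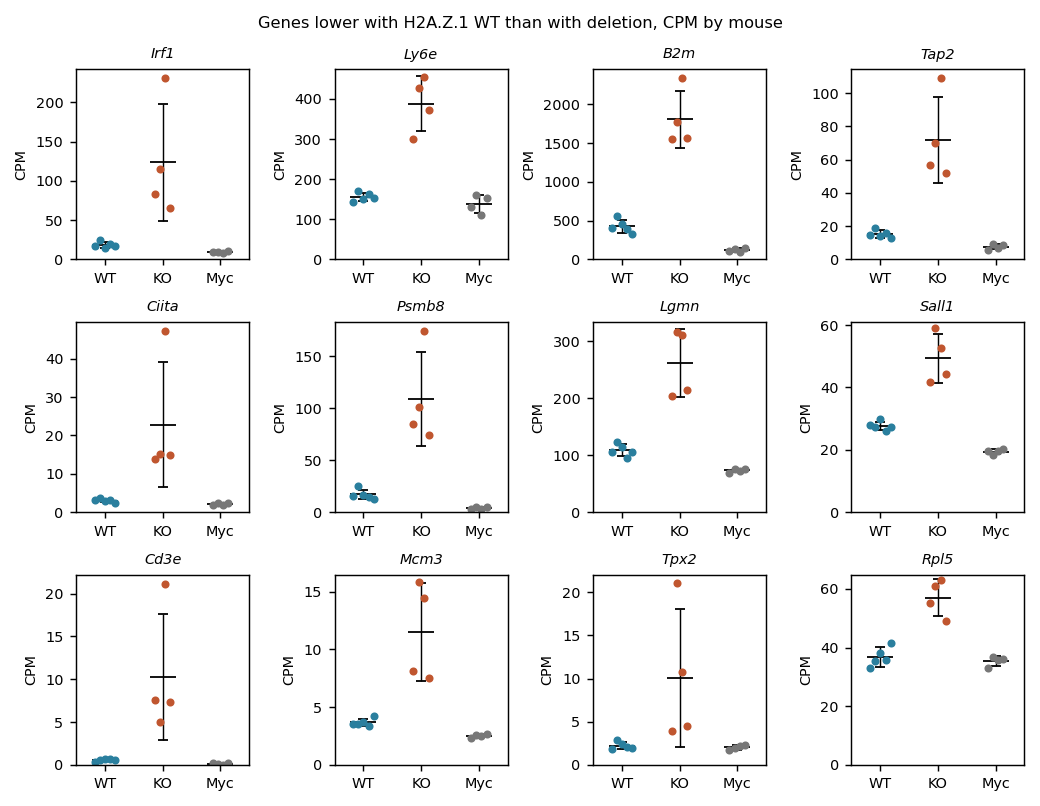
CPM of 12 lower genes in each mouse, with 1 panel per gene and 1 point per mouse for H2A.Z.1 WT (5 mice), H2A.Z KO (4 mice) and Myc (4 mice), and a bar and whiskers for mean ± SD. In each panel all H2A.Z.1 WT mice lie below all H2A.Z KO mice, and for B2m, Tap2 and Psmb8, for example, they also lie above all Myc mice. Some of these genes, such as Ly6e, were named by a rule that required the separation from H2A.Z KO.

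Chemokines, cytokines and complement were lower too. Of 35 chemokines and receptors tested, 25 fell and 1 rose (median log2 fold change -1.78). Cxcr6, a receptor of T cells, had 0.411, 1.42, 0.448, 0.626 and 0.425 CPM in the H2A.Z.1 WT mice, against 8.43, 4.77, 18.7 and 6.05 CPM in the H2A.Z KO mice (log2 fold change -3.84 ± 0.56 (SE), edgeR adjusted p = 6.9e-06). Ccr7, which guides T cells and dendritic cells to lymph nodes, had -4.54. Of 35 inflammatory cytokines and receptors, 31 fell and 1 rose (median -1.40). Tgfb1 had 6.17, 8.7, 8.6, 5.89 and 6.8 CPM with H2A.Z.1 WT, against 16.4, 20.5, 20.1 and 19.5 CPM with H2A.Z KO (log2 fold change -1.40 ± 0.17 (SE), edgeR adjusted p = 2.8e-07). The groups did not overlap. Tlr3, the receptor for double-stranded RNA, Il1rn, the interleukin-1 receptor antagonist, and Il1a had log2 fold changes of -1.12, -2.75 and -1.83. The members that rose, named after their values were seen, were the chemokine gene Ccl27a (0.47) and Il34, a ligand of the Csf1 receptor made by neurons (0.34), whose call was lost without KO 3, KO 4, KO 42, WT 30 or WT 46. Of 25 complement genes, 18 fell and none rose (median -1.48), among them Cfb, factor B of the alternative pathway (-2.78), C1ra, a protease of the classical pathway (-3.23), C5ar1, the C5a receptor (-1.50), and Itgam, a chain of complement receptor 3 (-1.26).

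Microglial genes, both homeostatic and phagocytic, fell. Of 21 homeostatic microglia genes, 17 fell and none rose (median log2 fold change -0.95). Sall1, a transcription factor that keeps microglial identity, had 28, 27.2, 29.8, 26.1 and 27.4 CPM in the H2A.Z.1 WT mice, against 41.9, 59, 52.6 and 44.3 CPM in the H2A.Z KO mice and 19.5, 18.4, 19.7 and 20.2 CPM in the Myc mice (log2 fold change -0.84 ± 0.09 (SE), edgeR adjusted p = 5.9e-08). The 3 groups did not overlap, with H2A.Z.1 WT in between. Selplg, a selectin ligand, and P2ry13, a purine receptor, had -0.95 and -1.06. Of 36 genes of phagocytic microglia and the lysosome, 30 fell and none rose (median -1.09), and 19 fell without KO 4. Lgmn, a lysosomal protease, had 106, 123, 114, 94.1 and 105 CPM with H2A.Z.1 WT, against 204, 315, 310.0 and 215 CPM with H2A.Z KO (log2 fold change -1.26 ± 0.13 (SE), edgeR adjusted p = 6.1e-08). Laptm5, a lysosomal membrane protein, Grn, which encodes progranulin, and Csf1, a growth factor of microglia, had -1.42, -1.32 and -1.09. The markers of microglia moved with these groups. All 5 (Tmem119, P2ry12, Cx3cr1, Csf1r and Aif1) were lower, their sum ran between 283 and 356 CPM with H2A.Z.1 WT, between 497 and 781 CPM with H2A.Z KO and between 175 and 226 CPM with Myc, none was at 0 in a group, and their part in the lower immune genes was not tested.

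The T and NK cell genes had the lowest median of the 48 gene lists. Of 43 T and NK cell genes, 41 fell and none rose (median log2 fold change -3.27). Cd8b1, a chain of the CD8 coreceptor, had 0.257, 0.526, 0.211, 0.313 and 0.163 CPM in the H2A.Z.1 WT mice, against 5.3, 4.31, 15.2 and 5.79 CPM in the H2A.Z KO mice and 0.0503, 0.0317, 0.0293 and 0.101 CPM in the Myc mice (log2 fold change -4.69 ± 0.62 (SE), edgeR adjusted p = 1.5e-06). Every H2A.Z.1 WT mouse was below 1 CPM and above every Myc mouse, and KO 21 had the highest value. Trac, the constant region of the T cell receptor alpha chain, had 0.874, 1.39, 1.19, 1.38 and 1.63 CPM with H2A.Z.1 WT, against 10.1, 5.75, 20.9 and 12.1 CPM with H2A.Z KO (log2 fold change -3.24 ± 0.40 (SE), edgeR adjusted p = 7.1e-07). The kinase gene Lck, which acts behind the T cell receptor, had -2.63. The 5 T cell markers (Cd3d, Cd3e, Cd3g, Cd8a and Trac) were all lower, and their sum ran between 2.65 and 5.36 CPM with H2A.Z.1 WT, between 34.3 and 133 CPM with H2A.Z KO and between 0.469 and 1.23 CPM with Myc. None was at 0 in a group, and the part of T cells in the lower interferon and MHC genes was not tested.

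B cell genes fell in part. Of 24 B and plasma cell genes, 12 fell and none rose (median log2 fold change -1.92), and in 15 every H2A.Z.1 WT mouse was below every H2A.Z KO mouse. Prdm1, a regulator of plasma cell differentiation, had -1.96, Pax5, the B cell identity factor, -2.55, and Cd79b, a chain of the B cell receptor, -2.19. Jchain, which joins secreted antibodies, had 11.1, 49.6, 53.3, 40.1 and 9.32 CPM with H2A.Z.1 WT, against 123, 61.7, 83 and 163 CPM with H2A.Z KO, and did not pass the test (log2 fold change -1.72 ± 0.91 (SE), edgeR adjusted p = 0.203). Immunoglobulin segments had the largest fitted fold changes, and their counts differed widely between the H2A.Z KO mice. Ighv9-3 had 0, 0, 0, 0.0261 and 0 CPM with H2A.Z.1 WT, where 1 mouse held a single count, against 7.25, 0.136, 3.44 and 478 CPM with H2A.Z KO (edgeR adjusted p = 0.00021). Ighg1 had 0, 2.45, 0.211, 0.104 and 0.0654 CPM with H2A.Z.1 WT, against 2.6, 3.11, 29.8 and 1168 CPM with H2A.Z KO (log2 fold change -9.12 ± 2.10 (SE), edgeR adjusted p = 0.0022). KO 42 held nearly all of the Ighv9-3 and Ighg1 counts. Without that mouse the log2 fold change of Ighg1 was -4.45 and no longer passed the test (edgeR adjusted p = 0.078), and without WT 10 it was -11.56. Ighv9-3 still passed without KO 42 (edgeR adjusted p = 0.0057). Igkv4-91 was at 0 in all 5 H2A.Z.1 WT mice, against 0.135, 8.45, 2.92 and 3.41 CPM in the H2A.Z KO mice, which is at least 221-fold lower when 3 counts are allowed over the H2A.Z.1 WT mice (edgeR adjusted p = 0.045). Its call was lost on leaving out any mouse but KO 3. Reads of these segments can be shared among near-identical family members.

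Other immune genes came up through the rule for the largest changes. Xcr1, a chemokine receptor of cross-presenting dendritic cells, had 0, 0.248, 0, 0.104 and 0 CPM with H2A.Z.1 WT, against 1.81, 2.21, 8.65 and 3.37 CPM with H2A.Z KO (log2 fold change -5.81 ± 0.93 (SE), edgeR adjusted p = 2.1e-05). Dnase1l3, a secreted nuclease of dendritic cells and macrophages, had 0.18, 0.186, 0.185, 0.209 and 0.131 CPM with H2A.Z.1 WT, against 2.22, 1.83, 22.2 and 3.93 CPM with H2A.Z KO (log2 fold change -5.37 ± 0.76 (SE), edgeR adjusted p = 4.4e-06). Gbp2b had 0.0514, 0.124, 0, 0 and 0.0327 CPM with H2A.Z.1 WT, against 0.324, 0.354, 8 and 0.605 CPM with H2A.Z KO (log2 fold change -5.77 ± 1.07 (SE), edgeR adjusted p = 0.00017). KO 21 was the highest H2A.Z KO mouse for these 3 genes. Without KO 21, their log2 fold changes were -5.10, -3.86 and -3.29, and without WT 10 those of Xcr1 and Gbp2b were -7.03 and -6.61.

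Cell cycle genes were lower in 2 lists, for which KO 4 and KO 21 stood highest. Of 38 mitosis genes, 35 fell and none rose (median log2 fold change -2.11). Tpx2, a spindle assembly factor, had 1.8, 2.88, 2.37, 2.03 and 1.99 CPM in the H2A.Z.1 WT mice, against 3.89, 21.1, 10.8 and 4.54 CPM in the H2A.Z KO mice and 1.66, 1.94, 2.2 and 2.28 CPM in the Myc mice (log2 fold change -2.19 ± 0.32 (SE), edgeR adjusted p = 4.6e-06). The H2A.Z.1 WT and Myc mice overlapped, and KO 4 and KO 21 were the highest. Without KO 4 the log2 fold change of Tpx2 was -1.54. The motor protein genes Kif11 and Cenpe had -2.12 and -1.98, and Cdc20, an activator of the anaphase-promoting complex, had -2.16. Of 41 DNA replication genes, 30 fell and none rose (median -0.51), and 17 fell without KO 4. Mcm3, a subunit of the replicative helicase, had 3.55, 3.56, 3.72, 3.39 and 4.19 CPM with H2A.Z.1 WT, against 8.16, 15.8, 14.5 and 7.52 CPM with H2A.Z KO (log2 fold change -1.65 ± 0.20 (SE), edgeR adjusted p = 3.4e-07). Rrm2, of ribonucleotide reductase, had -2.63, and -1.87 without KO 4. Chaf1b, of the histone chaperone CAF-1, and Uhrf1, which maintains DNA methylation, had -2.14 and -1.83.

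Of 31 p53 targets, 11 (35.5%) fell and 3 (9.68%) rose, against 12% and 7.44% of all genes tested. The median log2 fold change was -0.17, with 6 lower without KO 4 and 1 higher without KO 21. Pmaip1, which encodes the pro-apoptotic NOXA, had 3.47, 3.56, 2.95, 2.61 and 3.24 CPM in the H2A.Z.1 WT mice, against 6.79, 7.74, 7.53 and 6.35 CPM in the H2A.Z KO mice (log2 fold change -1.17 ± 0.17 (SE), edgeR adjusted p = 5e-06). Cdkn1a, the cell cycle inhibitor p21, had 10.6, 15.1, 10.8, 16.7 and 15.4 CPM with H2A.Z.1 WT, against 21.2, 36.2, 23.4 and 18.7 CPM with H2A.Z KO and 5.65, 6.82, 4.52 and 5.12 CPM with Myc (log2 fold change -0.86 ± 0.18 (SE), edgeR adjusted p = 0.00044). The H2A.Z.1 WT values of Cdkn1a lay between the other 2 groups. The death receptor gene Fas had -1.41. Ckap2, a microtubule protein, had -2.56, and -1.31 without KO 4.

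Glial and matrix genes followed a mixed pattern. Of 38 reactive glia genes, 28 fell and none rose (median log2 fold change -1.61), and 17 fell without KO 4. This list shares 3 genes with the MHC class I list, 2 with the interferon-stimulated list, 2 with complement and 4 with collagens and matrix. Its count is therefore not separate from theirs. Psmb8, an immunoproteasome subunit, had 15.5, 24.9, 16.9, 14.6 and 13 CPM in the H2A.Z.1 WT mice, against 85.1, 101, 174 and 74.3 CPM in the H2A.Z KO mice and 3.19, 5.08, 2.9 and 5.07 CPM in the Myc mice (log2 fold change -2.68 ± 0.37 (SE), edgeR adjusted p = 3.8e-06). H2A.Z.1 WT mice were below all H2A.Z KO mice and above all Myc mice. Srgn, a proteoglycan of immune granules, and Cp, which encodes ceruloplasmin, had -1.85 and -1.78. Of 20 astrocyte genes, 4 (20%) fell and 2 (10%) rose, against 12% lower and 7.44% higher among all genes tested. Without KO 21, KO 42 or WT 46, 1 astrocyte gene rose. The 2 glutamate transporters of astrocytes went opposite ways, Slc1a3 with log2 fold change -0.76 ± 0.11 (SE), edgeR adjusted p = 5.8e-06 and Slc1a2 with log2 fold change 0.35 ± 0.10 (SE), edgeR adjusted p = 0.0069. Slc1a2 had 2925, 2914, 2769, 2408 and 2659.6 CPM with H2A.Z.1 WT, against 2217, 2207, 1872 and 2288 CPM with H2A.Z KO, and the groups did not overlap. Of 68 collagen and matrix genes, 24 fell and 1 rose (median -0.53), with 14 lower without KO 4, and with 3 higher without KO 42 and 2 without WT 9. Mmp14 and Mmp2, matrix metalloproteinases, had -1.55 and -1.40, and Thbs1, which encodes thrombospondin 1, had -2.04. Of 22 endothelial genes, 4 (18.2%, against 12% of all genes tested) fell, and 7 fell without KO 21 or without WT 46. The leukocyte adhesion molecules Vcam1 (-1.96) and Icam1 (-2.26) were first by p. Of 22 genes of mural cells and fibroblasts, 6 (27.3%) fell, or 3 without KO 4, KO 42, WT 9, WT 29 or WT 30, and 10 with only the mice of the groups compared. The thalamus and striatum markers Tcf7l2, Prkcd, Drd1 and Adora2a, 2 of which fell, summed to between 30.1 and 39.7 CPM with H2A.Z.1 WT, between 45.8 and 69.7 CPM with H2A.Z KO and between 37.1 and 77.6 CPM with Myc, and their part in the other results was not tested. The oligodendrocyte markers Mbp, Mog and Mobp were not called.

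Choroid plexus transcripts ranged widely within each group. Their list had a median log2 fold change of -1.60 over 22 genes, of which 1 (4.55%, against 12% of all genes tested) fell and none rose. With only the mice of the groups compared, 6 fell. The markers Ttr, Kl, Folr1 and Kcnj13 summed to between 37.1 and 150 CPM with H2A.Z.1 WT, between 38.8 and 616 CPM with H2A.Z KO and between 26.8 and 563 CPM with Myc, and none of the 4 was called. The member that fell was Igfbp2, a growth factor binding protein also made outside the choroid plexus, with 12.5, 21.7, 15.5, 10.4 and 12.3 CPM with H2A.Z.1 WT, against 48.8, 198, 46.5 and 35.7 CPM with H2A.Z KO (log2 fold change -2.51 ± 0.45 (SE), edgeR adjusted p = 0.00013). KO 4 was the highest, and without it the log2 fold change was -1.59.

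Cytosolic ribosomal protein genes fell by small amounts, with 35 of 79 lower and none higher (median log2 fold change -0.39). Rpl5 had 32.9, 35.4, 38.2, 35.8 and 41.5 CPM in the H2A.Z.1 WT mice, against 55.2, 61, 63.1 and 49.1 CPM in the H2A.Z KO mice (log2 fold change -0.64 ± 0.09 (SE), edgeR adjusted p = 2e-06). Rpl10, Rpl21 and Rps26 had -0.61, -0.50 and -0.66. The mean log2 CPM of the 79 genes was 4.77, 4.91, 4.95, 5.01 and 5.28 in the H2A.Z.1 WT mice, against 5.51, 5.45, 5.51 and 4.88 in the H2A.Z KO mice. KO 42 was the low mouse of its group and WT 46 the high mouse of its own. Without KO 42, 56 of the 79 fell, and 46 fell within the mice numbered 1 to 20, against 6 within those numbered 21 to 46. Ribosomal protein genes have many processed pseudogenes that can take some of their reads. Of 69 respiratory chain genes, 2 (2.9%, against 7.44% of all genes tested) rose and none fell. Of 31 proteasome genes, 2 (6.45%, against 12%) fell and none rose. The extremes on leaving out 1 mouse were 0 respiratory genes without KO 4 and 4 proteasome genes without KO 42.

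The rule for the smallest p, which took only genes without overlap between the groups, also named lower genes of no single list. Rnd3, a small GTP-binding protein, had 20.4, 25.1, 19.3, 18.5 and 18.5 CPM in the H2A.Z.1 WT mice, against 42.1, 40.6, 40.3 and 38.5 CPM in the H2A.Z KO mice and 16.6, 19.4, 20.8 and 20.7 CPM in the Myc mice (log2 fold change -0.99 ± 0.10 (SE), edgeR adjusted p = 4.8e-08). The H2A.Z.1 WT mice lay below all H2A.Z KO mice, as the rule required, and overlapped the Myc mice. Tnfsf10, the death ligand TRAIL, had -2.11. Stk17b, a death-associated kinase, Parp11, a mono-ADP-ribosyltransferase, and Brip1os, a noncoding RNA antisense to Brip1 whose reads are separable from Brip1 only with strand information, had -1.42, -1.27 and -1.38. Pfn1, the actin binding protein profilin 1, had 65, 68.1, 70.5, 69.6 and 76.9 CPM with H2A.Z.1 WT, against 102, 114, 142 and 101 CPM with H2A.Z KO and 82.9, 94.3, 82.2 and 86.3 CPM with Myc (log2 fold change -0.71 ± 0.08 (SE), edgeR adjusted p = 7.7e-08). It fell below the Myc mice as well, with all H2A.Z.1 WT mice under all of them (H2A.Z.1 WT over Myc -0.30, edgeR adjusted p = 0.013).

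Genes higher with H2A.Z.1 WT were led by genes of varied roles. Wdr17, a WD repeat gene and the gene with the smallest p of all, had 23.2, 28.3, 25, 25.7 and 20.4 CPM in the H2A.Z.1 WT mice, against 10.7, 9.92, 11.2 and 11.4 CPM in the H2A.Z KO mice and 34.6, 31.2, 36.2 and 33.9 CPM in the Myc mice (log2 fold change 1.18 ± 0.09 (SE), edgeR adjusted p = 7.4e-11). The 3 groups did not overlap, with H2A.Z.1 WT in between. Rgs11, a regulator of G protein signaling, had 35.4, 33.6, 33.8, 34.6 and 36.9 CPM with H2A.Z.1 WT, against 13.5, 11.9, 15.9 and 9.68 CPM with H2A.Z KO and 36, 35.5, 36 and 33.7 CPM with Myc (log2 fold change 1.45 ± 0.16 (SE), edgeR adjusted p = 1.8e-07). Its H2A.Z.1 WT mice overlapped the Myc mice. L3mbtl1, a chromatin compactor that reads methylated histones, had 13.1, 12.7, 13.2, 14 and 12.8 CPM with H2A.Z.1 WT, against 5.33, 5.53, 5.28 and 5.36 CPM with H2A.Z KO (log2 fold change 1.29 ± 0.14 (SE), edgeR adjusted p = 8.7e-08). The spread between H2A.Z KO mice was narrow, from 5.28 to 5.53 CPM. Plaat1, a phospholipid-modifying enzyme, had 1.14, Ltk, a receptor tyrosine kinase, 1.25, and Smim18, a small membrane protein, 1.93. Smyd5, a SET domain methyltransferase, Pdlim7, a PDZ and LIM scaffold, Mcts1, a translation factor, Tspyl5, of the nucleosome assembly protein family, and Zfp950, a zinc finger protein, had 0.84, 0.92, 0.61, 0.70 and 0.61. That no gene of this paragraph overlapped between H2A.Z.1 WT and H2A.Z KO follows from the rule that named them, which required it.

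The largest fold among the higher genes named was that of Dach2, a transcriptional cofactor of the dachshund family, with 7.97, 12.5, 14, 3.6 and 4.15 CPM in the H2A.Z.1 WT mice, against 1.05, 0.982, 0.257 and 0.951 CPM in the H2A.Z KO mice and 1.26, 0.444, 0.704 and 0.964 CPM in the Myc mice (log2 fold change 3.40 ± 0.49 (SE), edgeR adjusted p = 5.6e-06). All H2A.Z.1 WT mice were above both other groups (H2A.Z.1 WT over Myc 3.30, edgeR adjusted p = 8.1e-05), and WT 9, WT 10 and WT 29 were higher than WT 30 and WT 46. Epyc, a small leucine-rich proteoglycan, Plcz1, a phospholipase known from sperm, and Akr1c18, which breaks down progesterone, had 2.11, 2.08 and 1.98. Akr1c18 had 1.34, 1.7, 1.9, 1.98 and 2.19 CPM with H2A.Z.1 WT, against 0.514, 0.654, 0.281 and 0.389 CPM with H2A.Z KO and 3.59, 4, 3.4 and 3.37 CPM with Myc. Its H2A.Z.1 WT mice were above the H2A.Z KO mice and below the Myc mice. Other genes named for a large increase were Pgpep1l (1.67), Klk7 (1.57), Zfp941 (1.56), Mcmdc2 (1.47) and Lor (1.42). The rule for the largest changes took only genes without overlap between H2A.Z.1 WT and H2A.Z KO.

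**Figure D3:**
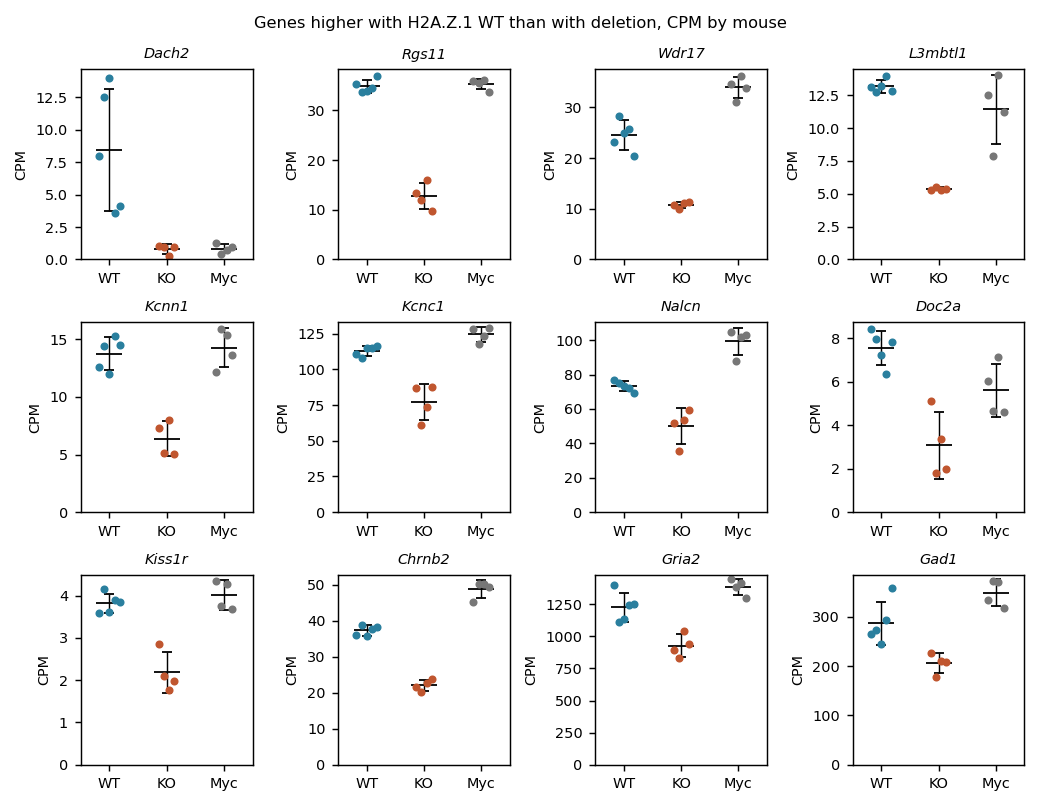
CPM of 12 higher genes in each mouse, with 1 panel per gene and 1 point per mouse for H2A.Z.1 WT (5 mice), H2A.Z KO (4 mice) and Myc (4 mice), and a bar and whiskers for mean ± SD. All H2A.Z.1 WT mice lie above all H2A.Z KO mice in each panel, and for Dach2 they also lie above all Myc mice. Some of these genes, such as Wdr17 and Dach2, were named by a rule that required the separation from H2A.Z KO.

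Promoter base composition was described by CpG. The observed over expected ratio of CpG had a median of 0.65 for higher genes, 0.49 for lower genes and 0.52 for all genes tested, and among genes past 1 on the log2 scale it was lower on both sides, at 0.26 for higher and 0.30 for lower genes. Over protein-coding genes alone the medians were 0.67 for higher, 0.53 for lower and 0.62 for all genes tested. The mitosis list, although lower, had 0.83. The promoters of Wdr17 (chr8:55177404-55177653, minus strand) and Ly6e (chr15:74826610-74826859, plus strand), the most significant gene in each direction, are shown with CpG in capitals: 14 in Wdr17 and 6 in Ly6e. These promoters were chosen for the p of their genes and stand for no group.
Wdr17: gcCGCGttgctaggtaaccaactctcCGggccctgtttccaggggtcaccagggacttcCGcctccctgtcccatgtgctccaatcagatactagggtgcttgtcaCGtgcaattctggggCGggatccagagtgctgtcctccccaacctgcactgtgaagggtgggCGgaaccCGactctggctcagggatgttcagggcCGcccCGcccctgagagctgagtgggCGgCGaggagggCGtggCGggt
Ly6e: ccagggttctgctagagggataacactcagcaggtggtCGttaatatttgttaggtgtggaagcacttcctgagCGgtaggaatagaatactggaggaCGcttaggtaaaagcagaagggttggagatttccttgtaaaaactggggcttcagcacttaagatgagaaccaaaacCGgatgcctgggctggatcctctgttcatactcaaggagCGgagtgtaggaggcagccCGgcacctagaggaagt

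Ion channel genes held the largest share of higher members among the gene lists. Of 45 sodium, calcium and HCN channel genes tested, 17 (37.8%) rose and 3 (6.67%) fell, against 7.44% and 12% of all genes tested. Their median log2 fold change was 0.31, and 7 rose without KO 4. Within the mice numbered 1 to 20, 12 rose (median 0.47), and within those numbered 21 to 46, 1 rose (median 0.18). Nalcn, the sodium leak channel, had 77, 74.8, 73.3, 72 and 69.4 CPM in the H2A.Z.1 WT mice, against 51.8, 35.5, 53.6 and 59.4 CPM in the H2A.Z KO mice and 105, 87.8, 102 and 103 CPM in the Myc mice (log2 fold change 0.55 ± 0.12 (SE), edgeR adjusted p = 0.00049). The groups did not overlap, with H2A.Z.1 WT between the other 2. Fam155a, a subunit of the same channel complex, had 126, 127, 126, 114 and 125 CPM with H2A.Z.1 WT, against 88.8, 72.2, 94.5 and 90.1 CPM with H2A.Z KO (log2 fold change 0.52 ± 0.10 (SE), edgeR adjusted p = 0.00017). Cacna1s, the calcium channel of skeletal muscle, and Trpm2, a calcium-permeable channel of microglia and neurons, fell (-1.63 and -0.37). Of 64 potassium channel genes, 18 (28.1%) rose and 3 (4.69%) fell (median 0.25), with 5 higher without KO 4, 11 without KO 3 and 9 without WT 30. Kcnn1, a small-conductance calcium-activated channel, had 12.6, 14.5, 12, 15.3 and 14.6 CPM with H2A.Z.1 WT, against 7.3, 5.1, 8.02 and 5.06 CPM with H2A.Z KO and 12.2, 15.9, 15.4 and 13.6 CPM with Myc (log2 fold change 1.11 ± 0.14 (SE), edgeR adjusted p = 7e-07). H2A.Z.1 WT and Myc mice overlapped. Kcnc1 and Kcnc2, channels of fast-spiking neurons, had 0.55 and 0.72. The 3 lower members were Kcnn4, a channel of lymphocytes and microglia (-2.50), and, named after their values were seen, Kcnj10, the Kir4.1 channel of astrocytes (-0.60), and Kcns1, a modulatory subunit (-0.69), whose call was lost without KO 3, KO 4, WT 9, WT 29 or WT 30.

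Kcnc1 and Kiss1r are among the genes that the study followed by name. Kcnc1 had 111, 108, 115, 115 and 116 CPM in the H2A.Z.1 WT mice, against 86.9, 61.3, 73.5 and 88 CPM in the H2A.Z KO mice and 129, 118, 123 and 129 CPM in the Myc mice (log2 fold change 0.55 ± 0.11 (SE), edgeR adjusted p = 0.00026). Kiss1r, the kisspeptin receptor, had 3.6, 4.15, 3.61, 3.89 and 3.86 CPM with H2A.Z.1 WT, against 2.87, 2.1, 1.78 and 1.99 CPM with H2A.Z KO and 4.35, 3.74, 4.28 and 3.68 CPM with Myc (log2 fold change 0.81 ± 0.16 (SE), edgeR adjusted p = 0.00026). In both genes every H2A.Z.1 WT mouse lay above every H2A.Z KO mouse. Kiss1r is 1 of 60 genes of monoamine, acetylcholine and steroid signaling. Of these, 9 (15%, against 7.44% of all genes tested) rose and none fell (median log2 fold change 0.11), and 5 rose without KO 4. Chrnb2, a nicotinic receptor subunit, had 35.9, 38.8, 35.7, 37.7 and 38.4 CPM with H2A.Z.1 WT, against 21.7, 20.1, 22.7 and 23.8 CPM with H2A.Z KO (log2 fold change 0.76 ± 0.10 (SE), edgeR adjusted p = 1.8e-06). Oprl1, the nociceptin receptor, had 0.90.

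Synaptic genes were called higher at shares that differed between lists, against 7.44% of all genes tested. Of 53 genes of presynaptic vesicle release, 13 (24.5%) rose and none fell (median log2 fold change 0.29), and 5 rose without KO 4. Doc2a, a calcium sensor of spontaneous release, had 8.41, 7.99, 7.23, 6.36 and 7.81 CPM in the H2A.Z.1 WT mice, against 5.14, 1.8, 3.37 and 1.99 CPM in the H2A.Z KO mice (log2 fold change 1.29 ± 0.23 (SE), edgeR adjusted p = 8.2e-05). Vamp1 and the synaptotagmins Syt3 and Syt17 had 0.70, 0.59 and 0.50. The H2A.Z.1 WT mice were above the H2A.Z KO mice in all 4 genes. Of 39 postsynaptic scaffold and plasticity genes, 8 (20.5%) rose and none fell (median 0.25). Without KO 4 the number was 2, and without KO 42 it was 17. It was 4 without KO 3, WT 30 or WT 46 and 5 without WT 9. Lrrtm1, a postsynaptic adhesion molecule, had 76.2, 79.3, 79.1, 77.1 and 84.6 CPM with H2A.Z.1 WT, against 59.5, 46.6, 66.1 and 57.7 CPM with H2A.Z KO (log2 fold change 0.46 ± 0.10 (SE), edgeR adjusted p = 0.0005). Of 38 glutamate receptor genes, 4 (10.5%) rose and 1 fell (median 0.18), with 1 higher without KO 4, 2 without WT 9 and 11 without KO 42, and with 0 lower without KO 42 and 2 without KO 3. Gria2, the AMPA receptor subunit that limits calcium entry, had 1398, 1112, 1133, 1243 and 1249 CPM with H2A.Z.1 WT, against 894, 830.4, 1040.4 and 942 CPM with H2A.Z KO (log2 fold change 0.41 ± 0.11 (SE), edgeR adjusted p = 0.0059). Of 20 GABA receptor genes, 2 (10%) rose, so that the shares of both receptor lists were near that of all genes, with 8 higher without KO 42, none without KO 4, WT 10 or WT 29 and 1 without KO 21, WT 9, WT 30 or WT 46. In the clustered protocadherins 9 of 56 (16.1%) rose, for example Pcdhga2 (0.64) and Pcdhac1 (0.96), and 1 (1.79%, against 12% of all genes tested) fell. Reads of their near-identical family members can be shared. Of this list, 5 rose without KO 3 or KO 4, and none fell without KO 4, KO 42 or WT 30.

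Of 25 pan-neuronal genes, 6 (24%, against 7.44% of all genes tested) rose and none fell (median log2 fold change 0.28). The number was 1 without KO 4, 2 without WT 30 or WT 46, and 11 without KO 42. Gad1, the GABA-synthesizing enzyme, had 264, 273, 244, 294 and 358 CPM in the H2A.Z.1 WT mice, against 226, 178, 211 and 209 CPM in the H2A.Z KO mice (log2 fold change 0.48 ± 0.11 (SE), edgeR adjusted p = 0.0016). Snap25, a SNARE protein, had 2414, 2531, 2469, 2806 and 2736 CPM with H2A.Z.1 WT, against 2066, 1444, 2121 and 2214 CPM with H2A.Z KO (log2 fold change 0.40 ± 0.14 (SE), edgeR adjusted p = 0.035), and its call was lost without KO 4, WT 30 or WT 46. Levels of the neuronal markers moved with the ion channel and synaptic lists, and 3 of the 5 were higher. The part of a changed share of neuronal RNA in those lists was not tested. Of 38 interneuron and neuropeptide genes, 6 (15.8%) rose and 5 (13.2%) fell, against 7.44% and 12% of all genes tested, so that the lower share was near that of all genes. On leaving out 1 mouse, 2 were higher without KO 4 and 3 without WT 46, and 3 were lower without KO 3, WT 9, WT 10 or WT 29. Pvalb, of fast-spiking interneurons, had 0.92, while the neuropeptide genes Crh and Pdyn fell (-0.86 and -1.35). Ppp1r1b, which encodes DARPP-32, had 0.97.

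Subfields of the hippocampus were set side by side through their own lists. Of 20 dentate granule neuron genes none was called (median log2 fold change -0.04). Of 19 CA1 genes, 1 (5.26%, against 12% of all genes tested) fell and none rose (median 0.15). Of 16 CA3 genes, 3 (18.8%, against 7.44%) rose and 1 (6.25%, against 12%) fell (median 0.23). The number that rose was 1 without KO 4, KO 21 or WT 9. The lower CA3 gene was Csf2rb2, a cytokine receptor subunit also made by myeloid cells (-1.99). Of 15 CA2 genes, 1 (6.67%) rose and 2 (13.3%) fell (median -0.07), against 7.44% and 12% of all genes tested. Without KO 4, WT 9 or WT 46, 1 CA2 gene fell. The CA2 list stood well below the Myc mice with and without replacement: its mean log2 CPM was 3.04, 2.90, 2.83, 3.08 and 3.13 in the H2A.Z.1 WT mice, 2.76, 3.03, 3.25 and 3.29 in the H2A.Z KO mice and 4.03, 4.15, 3.89 and 4.01 in the Myc mice. H2A.Z.1 WT and H2A.Z KO mice overlapped, and both were under all Myc mice. Rgs14, a suppressor of plasticity in CA2 neurons, had 48.3, 61.4, 57.6, 51.7 and 66.2 CPM with H2A.Z.1 WT, 41.8, 39.2, 50.6 and 44.5 CPM with H2A.Z KO and 95.6, 132, 99.3 and 111 CPM with Myc (log2 fold change 0.37 ± 0.18 (SE), edgeR adjusted p = 0.154). The difference of H2A.Z.1 WT from Myc was -0.94 on the log2 scale (edgeR adjusted p = 0.001). Adcy5, an adenylyl cyclase, rose against H2A.Z KO (0.34) and stood at -0.48 against Myc, and Tgfb1i1, a focal adhesion protein, fell (-0.72).

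Of 38 immediate early and neurotrophin genes, 1 rose (2.63%, against 7.44% of all genes tested) and 3 fell (7.89%, against 12%), with a median log2 fold change of -0.10, and without KO 42 it was 4 and 5. None rose without KO 3 or WT 30, and 2 rose without WT 10, WT 29 or WT 46. Arc had 141, 69.2, 65.2, 171 and 175 CPM in the H2A.Z.1 WT mice, against 46.7, 54.1, 85.3 and 170.5 CPM in the H2A.Z KO mice (log2 fold change 0.48 ± 0.37 (SE), edgeR adjusted p = 0.409), and Fos had 19.8, 9.32, 8.12, 12.2 and 12.7 CPM with H2A.Z.1 WT, against 13.1, 18.3, 13.9 and 24 CPM with H2A.Z KO (log2 fold change -0.47 ± 0.30 (SE), edgeR adjusted p = 0.293). Both genes overlapped between the groups, and Arc varied more among mice of a group than between group means. Gadd45b (log2 fold change -0.27 ± 0.13 (SE), edgeR adjusted p = 0.161), Fkbp5 (log2 fold change 0.14 ± 0.13 (SE), edgeR adjusted p = 0.505) and Th (log2 fold change 0.60 ± 0.42 (SE), edgeR adjusted p = 0.353) did not pass either, although without KO 42 Gadd45b passed with a log2 fold change of -0.39 (edgeR adjusted p = 0.036). Of the lower members, Crem, a cAMP-responsive repressor gene, had -0.47, Plat, which encodes tissue plasminogen activator, -0.52, and Nptx2, a synaptic pentraxin, -0.87.

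In the Wnt and Notch list 12 of 45 genes (26.7%) fell and 3 (6.67%) rose, against 12% and 7.44% of all genes tested. The median log2 fold change was -0.16, with 7 lower without KO 4, and 1 higher without KO 4 or KO 21 and 0 without WT 46. Mfng, a fringe glycosyltransferase that modifies Notch, had 2.93, 3.93, 3.43, 3.49 and 3.47 CPM in the H2A.Z.1 WT mice, against 6.27, 7.42, 7.62 and 4.19 CPM in the H2A.Z KO mice and 1.94, 2.63, 2.76 and 3.14 CPM in the Myc mice (log2 fold change -0.89 ± 0.17 (SE), edgeR adjusted p = 0.00022). KO 42 was the H2A.Z KO mouse nearest to H2A.Z.1 WT. Lfng, another fringe gene, and Sfrp1, a secreted Wnt inhibitor, had -0.71 and -1.73. Dkk2, a secreted modulator of Wnt receptors, had 1.36, 1.64, 1.16, 0.626 and 1.96 CPM with H2A.Z.1 WT, against 3.51, 1.69, 3.9 and 2.12 CPM with H2A.Z KO (log2 fold change -1.07 ± 0.29 (SE), edgeR adjusted p = 0.0078). The groups overlapped for Dkk2, and its log2 fold change was -0.86 without KO 21, past the threshold no longer.

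**Figure D4:**
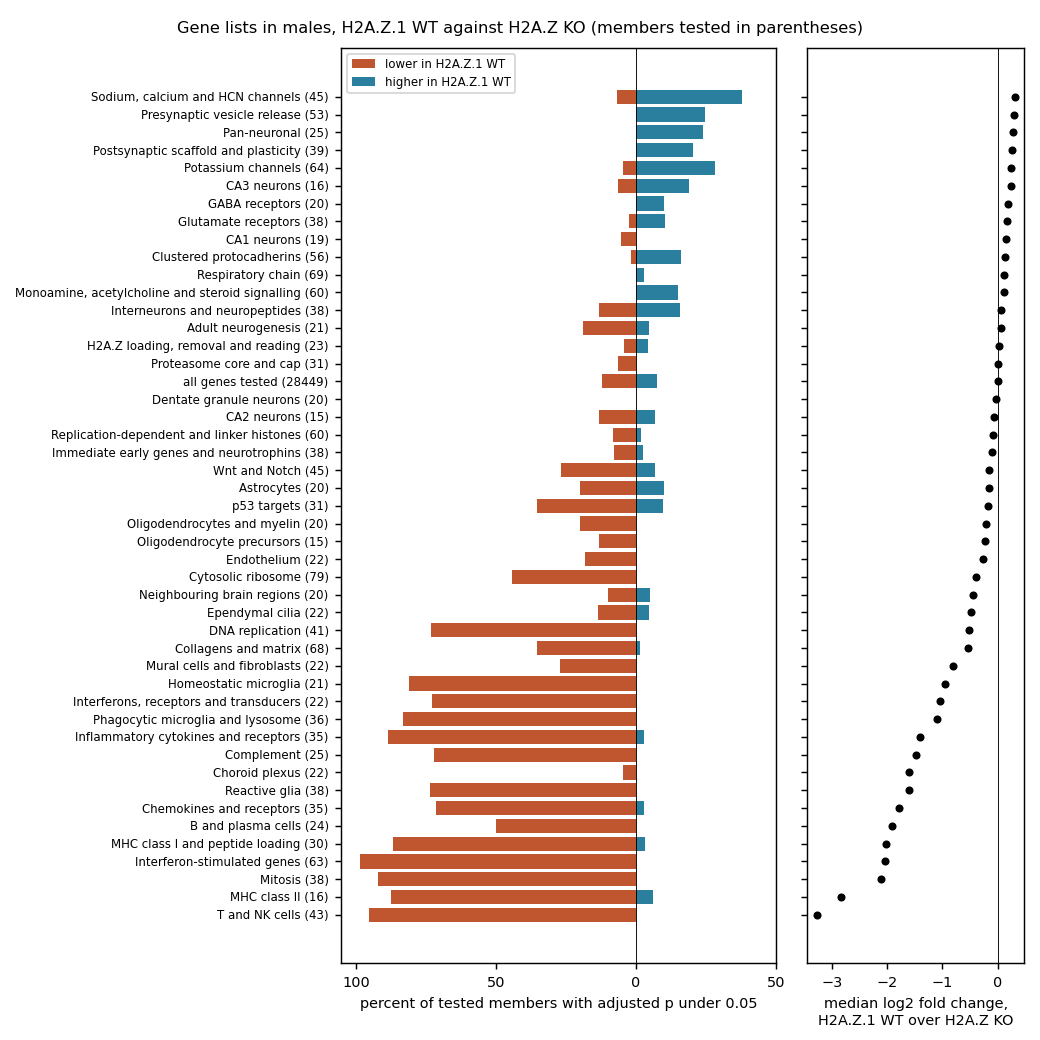
Percent of the tested members of each gene list, and of all genes tested, that were lower (left of zero) or higher (right of zero) with H2A.Z.1 WT at an adjusted p under 0.05, and the median log2 fold change of H2A.Z.1 WT over H2A.Z KO. The lists are in order of that median, and those of H2A variants (4 tested) and red blood cells (8 tested) are left out for their size. T and NK cells and MHC class II stand at one end, with 41 of 43 and 14 of 16 lower, and the sodium, calcium and HCN channels at the other, with 17 of 45 higher.

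The comparisons with Myc share mice with the one above and with each other, and their values are given only side by side. Between H2A.Z.1 WT and Myc, 1042 genes (3.66%) were higher and 477 (1.68%) were lower, and between H2A.Z KO and Myc, 4900 (17.2%) were higher and 4104 (14.4%) were lower. Of the 63 interferon-stimulated genes, 57 were higher with H2A.Z.1 WT than with Myc (median log2 fold change 2.11), and 62 were higher with H2A.Z KO than with Myc (median 4.27). The mean log2 CPM of this list was 3.91, 4.66, 4.12, 3.95 and 3.56 in the H2A.Z.1 WT mice, 5.79, 6.40, 6.66 and 5.84 in the H2A.Z KO mice and 2.06, 2.53, 1.62 and 2.29 in the Myc mice. The 3 groups did not overlap, and WT 10 was the highest H2A.Z.1 WT mouse. Homeostatic microglia genes had 18 of 21 higher with H2A.Z.1 WT than with Myc, and the T and NK cell list 10 of 43. Mitosis genes had 1 of 38 higher with H2A.Z.1 WT than with Myc (median 0.36), while 35 were higher with H2A.Z KO than with Myc. None of the 79 ribosomal protein genes differed between H2A.Z.1 WT and Myc at the threshold. For pan-neuronal genes the numbers lower than in Myc were 0 of 25 with H2A.Z.1 WT and 18 of 25 with H2A.Z KO, and for the presynaptic list 1 and 32 of 53. The CA2 list had 8 of 15 lower with H2A.Z.1 WT and 9 of 15 lower with H2A.Z KO.

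**Figure D5:**
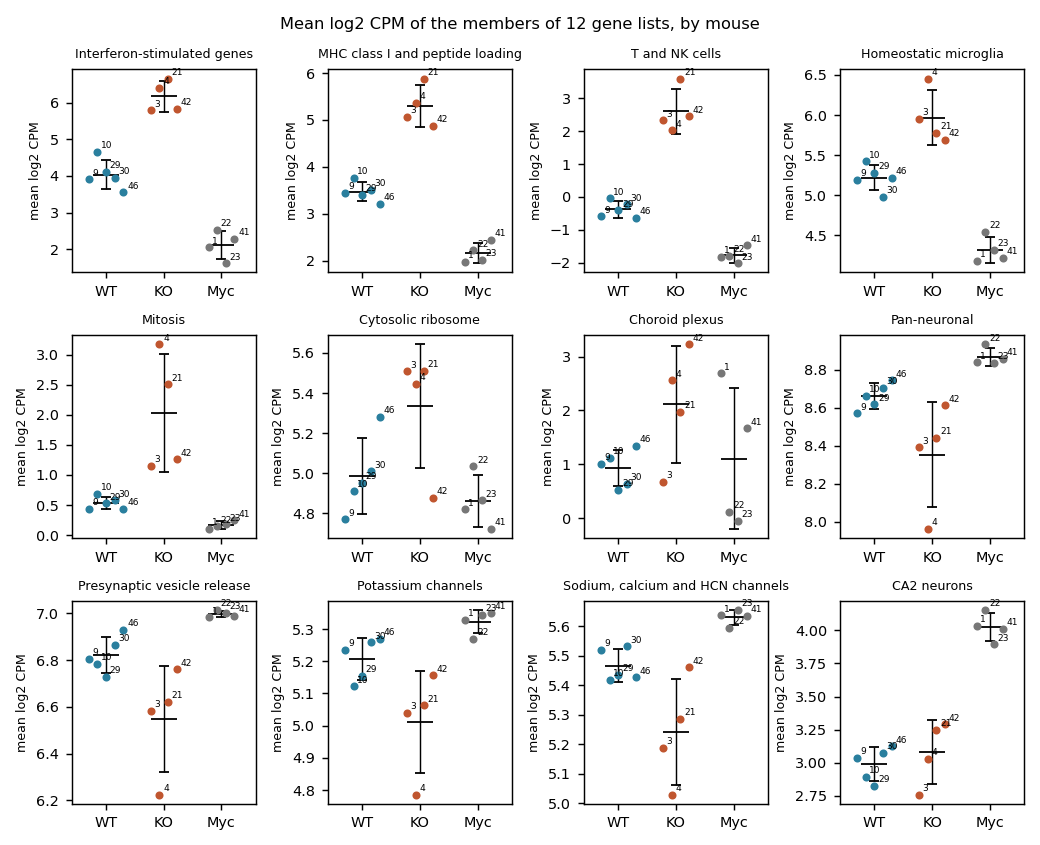
Mean log2 CPM of the members of 12 gene lists in each mouse, with the sample number beside each point, for H2A.Z.1 WT, H2A.Z KO and Myc, and a bar and whiskers for mean ± SD over the 5, 4 and 4 mice. H2A.Z.1 WT lies between the other groups for the interferon, MHC, T cell and microglia lists, and at the level of H2A.Z KO for the CA2 list. KO 4 is the lowest mouse of the pan-neuronal, presynaptic and both ion channel panels.

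Females carried the same comparison in 4 H2A.Z.1 WT and 4 H2A.Z KO mice. There, 1524 genes (5.36%) were higher and 2610 (9.17%) lower with H2A.Z.1 WT. The test of the difference between the male and the female response called 0 of 28449 genes in edgeR, with 968 (3.4%) at an unadjusted p under 0.05, and DESeq2 called 4, all immunoglobulin segments (Igkv4-91, Igkv6-20, Igkv6-13 and Ighv1-81). The genes with the smallest unadjusted p were Drd2, Mphosph6, Frmpd2, Enox1, Rspo1 and Rnf207, each with an adjusted p of 1.0 in edgeR for the difference. Drd2, the dopamine D2 receptor, had a log2 fold change of 0.42 in males and 1.65 in females. Rspo1, a secreted Wnt agonist, had -2.28 in males and -0.72 in females. Mphosph6, of the RNA exosome, had -0.38 in males and -0.02 in females, and Enox1, an electron transfer protein, had 0.34 in males and 0.01 in females. Frmpd2 and Rnf207 had -0.98 and -0.18 in males, not past the threshold, against 1.00 and 1.34 in females. Without WT 29, Frmpd2 passed in males with a log2 fold change of -1.40 (edgeR adjusted p = 0.013). The interferon-stimulated gene list had 61 of 63 lower in females (median -1.73) and the T and NK cell list 39 of 43 (median -2.40), beside the male values above. For the pan-neuronal list 9 of 25 were higher in females, and for the postsynaptic list none of 39.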

How the data were processed

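RNA-seq of hippocampal tissue (paired-end, Illumina HiSeq4000) was measured in 40 mice of 10 groups, of which 5 H2A.Z.1 WT and 4 H2A.Z KO males are compared here, beside 4 Myc males and 8 females. The authors deposited a table of raw read counts per gene, aligned to GRCm39 with Rsubread and counted with featureCounts. The submitters' processing notes also name FastQC 0.11.9 and DESeq2 1.38.3. A normalized table was not used. Strand setting and annotation release are not given in the sources used here.

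Of 40853 genes, the 28449 whose counts over the 40 mice came to 20 or more were tested. Counts were scaled by TMM and fitted with edgeR 4.0.16 (R 4.3.3, limma 3.58.1) by the quasi-likelihood test with robust estimation, in 1 model of all 10 groups without covariates, so that all groups share the estimate of spread. Adjusted p-values are Benjamini-Hochberg over all genes tested, and a gene was called at an adjusted p under 0.05. CPM are TMM-scaled, and mean log2 CPM used a prior count of 2. The total of counts per mouse limits the precision of low genes, and a group at 0 was allowed 3 counts over the group. The labels name separate mice, so that p-values measure the spread between mice.

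Genes named are H2az1 and H2az2, those the study names in its RNA or ChIP-qPCR results, up to 12 genes in each direction by fold and by p among genes with at least 1 CPM on average and no overlap between the groups (predicted genes left out), the 4 members of each of 48 gene lists with the smallest p, and 6 genes for the sexes. B2m, Th, Fkbp5, Arc, Fos and Gadd45b are named there for ChIP-qPCR of acetylated H2A.Z. Not every gene under the rule is printed. The members and lists were chosen with earlier results of these data known. Of 1543 list symbols, 1534 were tested, and some of them stand in more than 1 list. Promoters were read from GRCm39 at the start of GENCODE canonical transcripts. Alternatives were DESeq2 1.42.0, its size factors, 2 filters, no robust estimation, only the mice compared, the range of the sample number as a covariate or a split, and leaving out each mouse.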

Additional observations from a re-analysis of the deposited data

Results flagged for a closer look

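In each group of 4 or 5 mice, the mouse farthest from the rest was compared with the group's range by Dixon's test for the genes and gene lists of the text. Of 416 groups tested, 31 held a mouse past the 95% limit, against 20.8 at 1 in 20 by chance.

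The most frequent was KO 21, which stood high among the H2A.Z KO mice for Cd3e (21.2 CPM), Cd8b1 (15.2 CPM), Ciita (47.3 CPM), Crem (24 CPM), Dnase1l3 (22.2 CPM), Gbp2b (7.995 CPM), Ifng (7.93 CPM), Il1rn (9.37 CPM), Lck (23.4 CPM), Rspo1 (5.68 CPM), Stk17b (24.1 CPM) and Tnfsf10 (38.5 CPM). It stood low for Dach2 (0.257 CPM) and Rnf207 (2.2 CPM).

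KO 4 stood high for Ckap2 (21 CPM), Igfbp2 (198 CPM) and Itgam (174 CPM). KO 42 stood high for Ighg1 (1168 CPM), Ighv9-3 (478 CPM) and Plcz1 (1.04 CPM) and low for the cytosolic ribosome list, with a mean log2 CPM of 4.88.

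Among the H2A.Z.1 WT mice, WT 10 stood high for C1ra (7.34 CPM), Cfb (9.63 CPM), Cxcr6 (1.42 CPM), Ighg1 (2.45 CPM), Th (1.49 CPM), Trim25 (17.2 CPM) and Vcam1 (62.7 CPM). WT 29 stood high for Frmpd2 (1.11 CPM) and WT 30 for Ighv9-3 (0.0261 CPM). WT 30 stood low for Fam155a (114 CPM). The reasons were not tested.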

How the results depend on the processing

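Without KO 4, 1300 genes were higher, and over all single mice left out the number ran between 1300 and 2222 for higher genes, 2534 and 3616 for lower genes, and 1463 and 1947 for genes lower by more than 1 on the log2 scale. With only the mice of the groups compared, 1295 genes were higher. Within the mice numbered 1 to 20, 910 genes were higher, 1751 were lower and 1030 were lower by more than 1 on the log2 scale. Within those numbered 21 to 46, 838 were higher and 1825 were lower. The splits hold fewer mice. DESeq2 called 4 genes for the difference between the sexes, where edgeR called 0 under the alternatives run for it, which leave out the sample number splits, and the cause was not tested. The other counts over all genes stayed within 1.5 times. With only the mice of the groups compared, Brd2, Ckap2, Ighg1, Igkv4-91, Il34, Kat5, Pdyn and Rfxap lost their calls, and 19 DNA replication genes fell in place of 30. Within 21 to 46, 3 presynaptic and 4 potassium channel genes rose, against 9 of each within 1 to 20. Of 160 genes named, H2az1 turned to a log2 fold change of -0.037 within 1 to 20, H2az2 to 0.18 within 21 to 46 and to 0.0045 without KO 4 (between -0.15 and 0.0045 over all single mice left out), and Rnf207 to 0.0085 within 21 to 46. None of these 3 genes was called with all mice. Of 2880 values of single genes over the alternatives, 2775 kept direction and side of the threshold and 97 lost the call, 56 of them within a sample number range. Calls were gained for Frmpd2 without WT 29, Gadd45b without KO 42, Rgs14 with only the mice compared and H2az1 within 21 to 46. No paired analysis was possible because the H2A.Z.1 WT and H2A.Z KO mice share no replicate numbers. Depth limits genes near or under 1 CPM.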
